A study of Mus musculus with 18 samples.

Results

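The IL-1 and IL-36 cytokine family was followed through sorted epidermal cells of psoriasis-like ear skin. The family was taken by name as 9 genes of the 23951 listed. The 5 IL-1 genes are the agonists Il1a and Il1b, the receptor antagonist Il1rn, the decoy receptor Il1r2 and the related cytokine Il18. The 4 IL-36 genes carry older symbols in the data, Il1f6 (IL-36α), Il1f8 (IL-36β) and Il1f9 (IL-36γ) for the agonists and Il1f5 (IL-36RN) for the antagonist.

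RNA-seq was performed on 18 libraries from ear skin at day 7, with 3 mice in each of 6 groups. DKO*-mT/mG mice carried the f/f (homozygous floxed) alleles of both JunB and c-Jun, a tamoxifen-inducible K5-Cre-ERT transgene and the mT/mG reporter. Controls (Co-mT/mG) carried K5-Cre with wild-type or heterozygous floxed JunB and c-Jun. The DKO* model was of mixed background, and none is stated for the controls. Mice of both genotypes were of both sexes, and received 4 daily injections of 2 mg tamoxifen at 8 weeks of age. In DKO* mice 814, 815 and 817, cells were split into GFP (recombined, mutant) and Tomato (Tom, not recombined, non-mutant) fractions, whereas cells of control mice 810, 825 and 828 (Co) are not split by colour in the labels. Bulge hair follicle stem cells (HF-SC) were gated as CD45- CD49f high CD34+ and basal keratinocytes (b-KC) as CD45- CD49f high CD34-. The K5 promoter acts in both cell types, so both carry the deletion, and Tom cells share a skin with mutant cells rather than being cells of a control animal.

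IL-1α and IL-1β bind a common receptor that recruits MyD88 and IRAK kinases and switches on NF-κB targets such as chemokines. The antagonist encoded by Il1rn occupies that receptor without signalling, and the receptor encoded by Il1r2 captures ligand without signalling. IL-36 cytokines work the same way through their own receptor, encoded by Il1rl2, with IL-36RN as the blocker. Keratinocytes are a major source of IL-1α and of IL-36 cytokines, and loss of the IL-36 blocker is a known cause of pustular psoriasis in humans.

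Except for Il18 on chromosome 9 (50383378 to 50389942, NCBIM37) and Il1r2 on chromosome 1 (40141613 to 40182064), the genes lie on chromosome 2. The IL-36 genes and Il1rn share a block of 198 kb from 24008681 to 24207014, in which Il1f8, Il1f9, Il1f6, Il1f5, Il1f10 and Il1rn follow each other and no gene of another family is listed. Il1a (129125346 to 129135708) and Il1b (129190306 to 129196875) lie next to each other, 105 Mb from that block and on the minus strand.

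The deleted genes encode subunits of the transcription factor AP-1, whose binding motif is TGANTCA, where N is any base. RefSeq promoter windows of 250 bases before to 50 after each start (GRCm38.p6) were found for 8 of the 9 genes, 11 windows in all, and none for Il1f6. The AP-1 motif, which reads the same on both strands apart from its middle base, was present in windows of 3 genes, Il1a, Il1rn and Il1f8, and the related CRE motif TGACGTCA in none. Of all 27025 genes with a window, 8.97% held the AP-1 motif and 2.03% the CRE motif. The 250 bases before the start of these 3 genes are shown because they carry the letters that the deleted factors are known to bind, in capitals, 5′ to 3′ along the gene's own strand. A match is a description of the letters and not a binding site. The motif began 12 bases before the start of Il1a (chr2:129309973-129310222, minus strand), 141 before the first of 3 listed starts of Il1rn (chr2:24336610-24336859, plus strand) and 236 before that of Il1f8 (chr2:24152922-24153171, plus strand).
Il1a: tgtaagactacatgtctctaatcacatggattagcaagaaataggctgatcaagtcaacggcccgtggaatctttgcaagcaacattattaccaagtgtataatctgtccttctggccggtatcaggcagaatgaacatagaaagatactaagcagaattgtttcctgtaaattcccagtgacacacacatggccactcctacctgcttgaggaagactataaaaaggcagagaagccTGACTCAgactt
Il1rn: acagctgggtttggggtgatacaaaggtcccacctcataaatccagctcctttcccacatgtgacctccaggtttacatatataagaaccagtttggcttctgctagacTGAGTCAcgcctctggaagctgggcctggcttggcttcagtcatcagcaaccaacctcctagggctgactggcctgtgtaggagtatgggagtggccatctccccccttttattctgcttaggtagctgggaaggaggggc
Il1f8: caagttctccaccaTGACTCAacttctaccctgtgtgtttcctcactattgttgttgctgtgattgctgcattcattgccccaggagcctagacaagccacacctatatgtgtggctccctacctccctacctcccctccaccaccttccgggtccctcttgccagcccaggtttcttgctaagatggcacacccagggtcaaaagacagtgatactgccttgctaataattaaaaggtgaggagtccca

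Expression is given as FPKM, reads scaled by transcript length and by library size. Implied depth was 16500000 to 26280000 reads per library, and 3 reads on a transcript of 1 kb were worth 0.114 to 0.182 FPKM. Differences were tested on log2(FPKM + 1), which understates the change of genes of low FPKM, with limma over the 12751 genes at 1 FPKM or more in at least 3 libraries. All 9 family genes were among them. A gene passed at an adjusted p-value under 0.05, and all adjusted p-values below are from limma with Benjamini-Hochberg adjustment over the 12751 genes. Libraries with the same mouse number are fractions of that mouse's ear skin. Fewer cells of a type cannot be told apart from less RNA per cell in such bulk samples.

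The deleted genes were lowest in GFP cells. Mean Jun in HF-SCs was 983 FPKM for Co, 62.8 for GFP and 418 for Tom cells, and 952, 49.6 and 264 FPKM in the corresponding b-KC groups. Mean Junb was 447, 62.5 and 310 FPKM in HF-SCs and 749, 59.6 and 322 in b-KCs, in the same order. Although labelled as not recombined, Tom cells were below Co for Jun in both cell types (adjusted p of 0.0155 for HF-SCs and 0.00114 for b-KCs) and for Junb in b-KCs (0.00308), while Junb of HF-SC Tom did not pass (0.147). The gate marker Cd34 had 640 to 889 FPKM in HF-SC Co and 161 to 319 in the DKO* HF-SC libraries, against 0.341 to 2.53 in b-KC libraries. Of 7 bulge stem cell markers, Cd34 included, 4 (GFP) and 6 (Tom) fell in HF-SCs and 1 and 4 in b-KCs, and none rose. Of 4 melanocyte markers 3 rose in HF-SC GFP, beside 18.5% of all genes tested, and none passed in the other DKO* populations. The part of these markers in the family's values was not tested. Endothelial markers stood apart in HF-SC Tom, where the sum over all 8 of them was 393 to 1234 FPKM against 44.4 to 73.4 in HF-SC Co, 1.06 to 25.2 in HF-SC GFP and 0.416 to 6.84 in b-KC. Libraries of mouse 817 also stood apart for the family. This mouse had the lowest value of the 3 DKO* mice in 31 of 36 combinations of a gene and a DKO* group, so results are also given without it where a call changed.

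**Figure D1:**
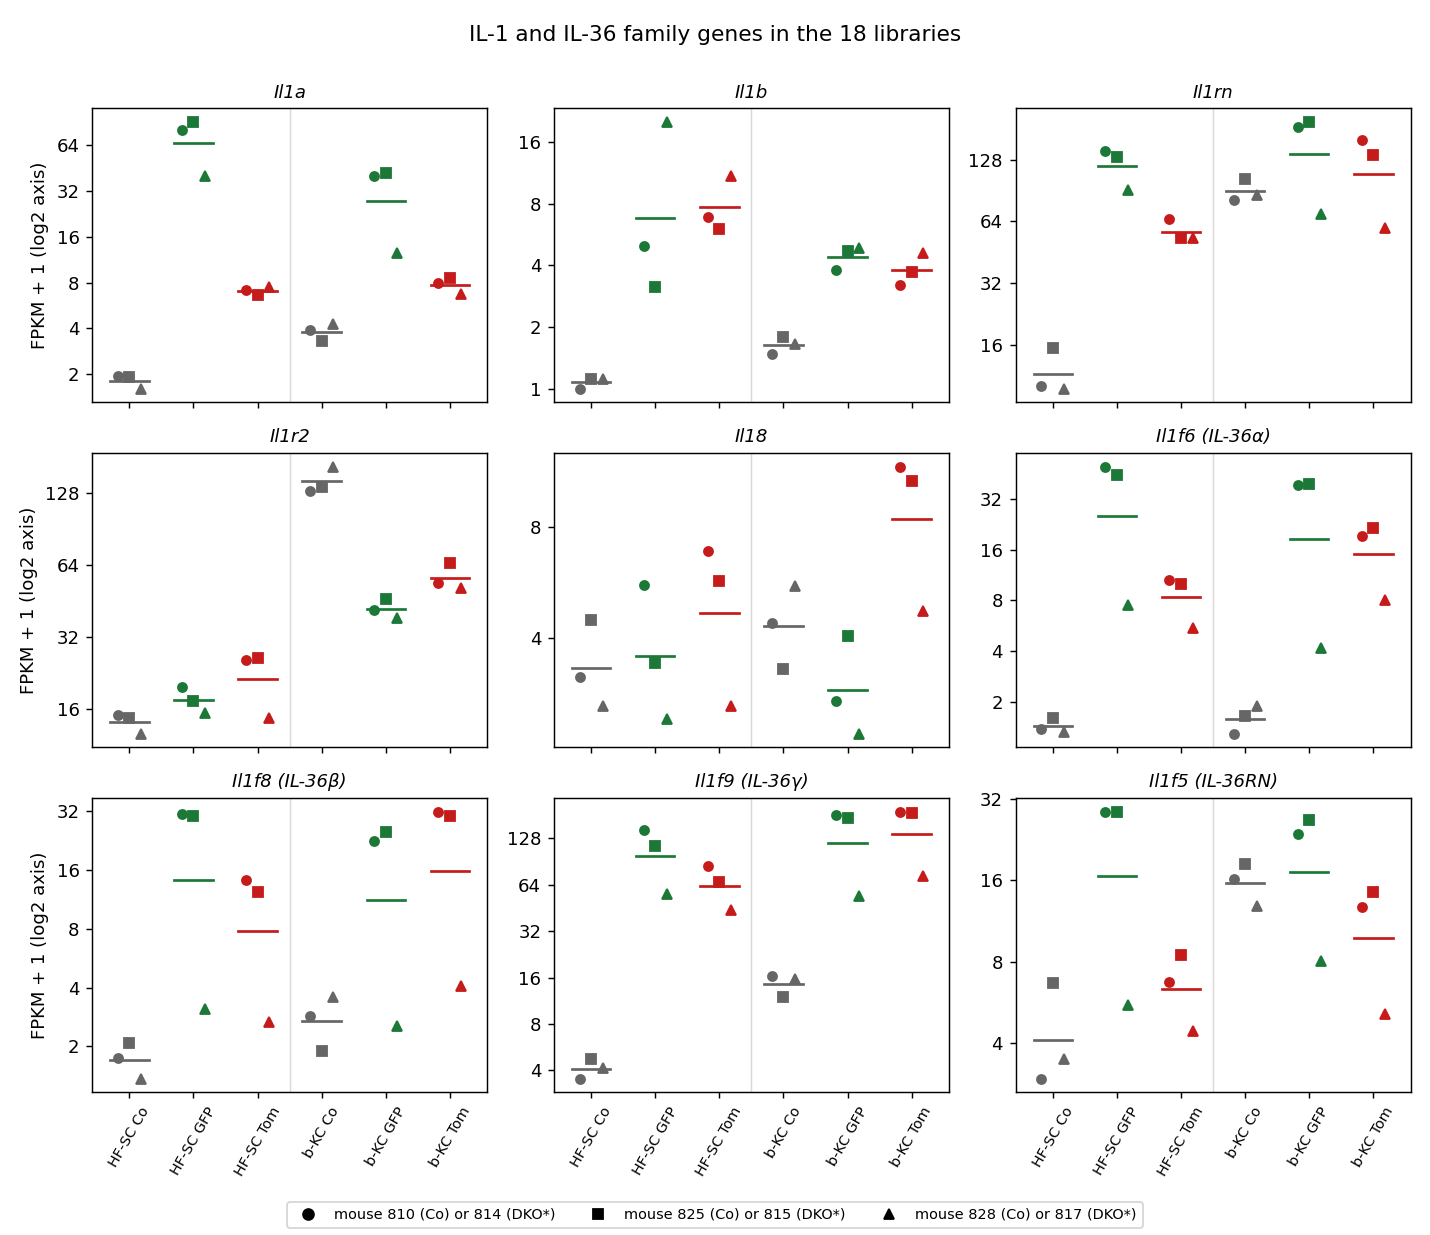
FPKM + 1 on a log2 axis for each family gene in each library, grouped by cell type and fraction (grey Co, green GFP, red Tom), with the marker shape giving the mouse and the bar the mean on the log2 scale. Il1a and Il1f9 of every DKO* library lie above those of their Co group, Il1r2 of b-KCs lies below, and triangles of mouse 817 lie lowest in most DKO* groups.

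In mutant HF-SCs, 7 of the 9 genes rose and none fell against HF-SC Co, where 18.5% of all genes tested rose and 20% fell. The genes were the agonists Il1a, Il1b, Il1f6, Il1f8 and Il1f9 and both antagonists, Il1rn and Il1f5. The median change of the 9 genes was 3.07 on the log2 scale, beside -0.05 for all genes tested. Non-mutant Tom HF-SCs of the same mice showed 6 genes higher and none lower, beside backgrounds of 22.3% and 22.1%. Among b-KCs, 4 genes rose and 1 fell in GFP cells (backgrounds of 20.3% and 21.3%) and 4 rose and 1 fell in Tom cells (22.6% and 23.3%). Il1a, Il1b, Il1f6 and Il1f9 rose in all 4 populations, as did 8.6% of all genes tested, and Il1r2 was the gene that fell in both b-KC populations, as did 17.8%. The 2 comparisons of a cell type share their Co libraries. Without mouse 817, 8 (GFP) and 9 (Tom) of the genes passed in HF-SCs and 8 and 8 in b-KCs, but 51.5%, 59.4%, 59.4% and 57.6% of all genes passed in either direction there too. Under a stricter rule (adjusted p under 0.01 and a log2 change of at least 2), 5 and 3 genes rose in GFP and Tom HF-SCs, beside 2.43% and 3.61% of all genes, and 3 and 2 in GFP and Tom b-KCs, beside 1.29% and 1.25%.

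**Figure D2:**
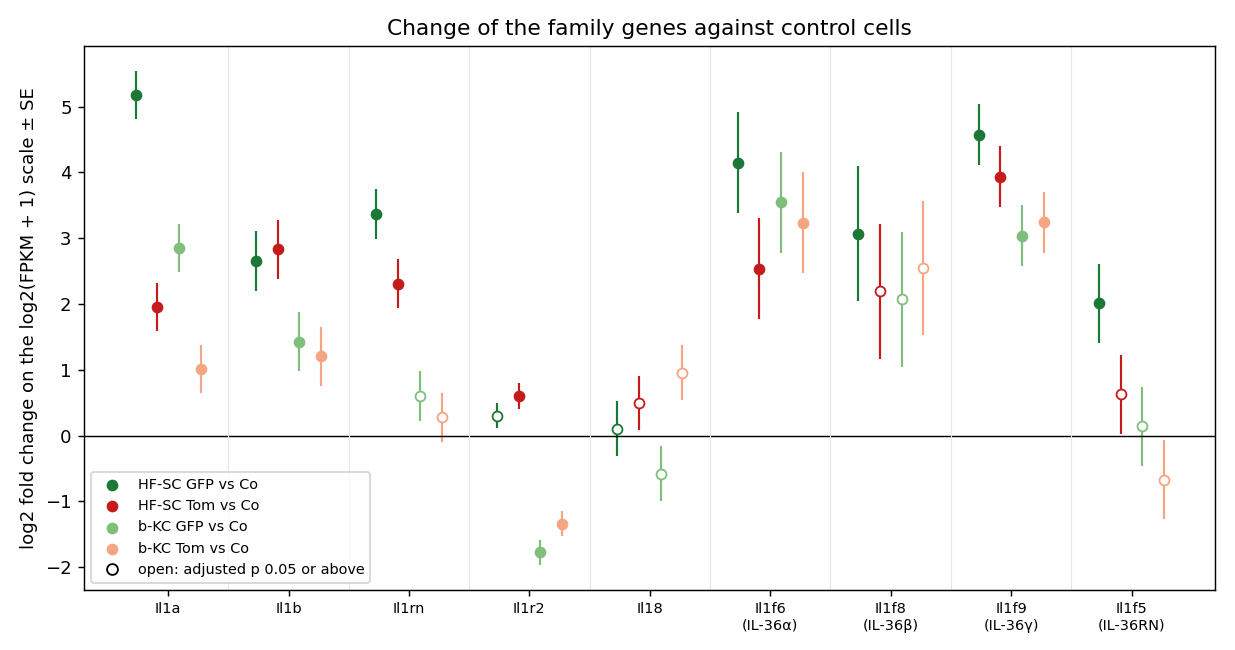
Log2 fold change against the Co cells of the same type, on the log2(FPKM + 1) scale with standard errors, for each family gene and DKO* population, filled where the adjusted p was under 0.05. Il1a had the largest change of the family, 5.18 in HF-SC GFP, and Il1r2 had changes of -1.77 and -1.34 in the b-KC populations.

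Il1a, which encodes the IL-1α that epithelial cells hold ready and release on damage, was scarcely expressed in HF-SC Co, with 0.963, 0.922 and 0.603 FPKM in mice 810, 825 and 828. HF-SC GFP libraries of mice 814, 815 and 817 had 78.7, 89.8 and 38.8 FPKM, and HF-SC Tom libraries 6.12, 5.59 and 6.46. The 3 groups did not overlap. The mean was 83.3-fold higher in GFP than in Co cells (log2 fold change 5.18, SE 0.36, adjusted p = 8.32e-08) and 7.30-fold higher in Tom cells (1.95, adjusted p = 5.01e-04). Control b-KCs had Il1a at 2.88, 2.33 and 3.30 FPKM, the mutant fraction at 38.9, 40.6 and 11.6 and the Tom fraction at 7.00, 7.58 and 5.73. Again the groups did not overlap, with GFP highest and Co lowest. The mean was 10.7-fold higher in GFP than in Co cells (log2 fold change 2.85, SE 0.36, adjusted p = 4.62e-05) and 2.39-fold higher in Tom cells (1.02, adjusted p = 0.0321). The b-KC Tom call was lost when any mouse but 817 was left out (adjusted p between 0.0642 and 0.113) and without the filter on low values (0.0583).

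Il1a was also the family member that passed between mutant and non-mutant cells of the same skin in the fit without a mouse block. Il1rn in HF-SCs and Il18 and Il1r2 in b-KCs did not overlap between the fractions either, and Il1rn and Il18 passed there with the block. The GFP fraction exceeded the Tom fraction 12.9-, 16.1- and 6.01-fold in HF-SCs of mice 814, 815 and 817, and 5.56-, 5.36- and 2.02-fold in their b-KCs. Both differences passed, at 3.23 on the log2 scale in HF-SCs (adjusted p = 1.50e-05) and 1.83 in b-KCs (adjusted p = 0.0171). The b-KC call was lost without mouse 814 (adjusted p = 0.263), without mouse 815 (0.318) and in a fit of the b-KC GFP and Tom groups alone (0.195). HF-SCs gained more Il1a than b-KCs on going from Co to GFP, by 2.33 on the log2 scale (SE 0.52, adjusted p = 0.00819), a difference that did not pass without mouse 828 (adjusted p = 0.0568). In control skin the order was the other way, with 3 HF-SC Co libraries all below the b-KC Co libraries.

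Il1b encodes IL-1β, the inflammasome-processed agonist best known from myeloid cells. In HF-SC Co it was listed at 0, 0.121 and 0.124 FPKM, the latter about what 3 reads on 1 kb were worth, so no ratio is given. An exact 0 in these data need not mean low expression, since Krt14, a keratin of all basal keratinocytes, is listed at 0 in 1 b-KC GFP and 2 b-KC Tom libraries. HF-SC GFP libraries had 3.95, 2.15 and 19.02 FPKM and HF-SC Tom libraries 5.88, 5.05 and 9.94, all above Co and overlapping each other. Mouse 817 had the highest value in both fractions, unlike most family genes. The fitted differences from Co were 2.65 (SE 0.45, adjusted p = 2.78e-04) for GFP and 2.83 (adjusted p = 1.24e-04) for Tom cells. Without mouse 817 the GFP difference was 1.87, and with a pseudocount of 0.1 in place of 1 the differences were 5.04 and 5.31. Among b-KCs, Co had 0.487, 0.799 and 0.665 FPKM, GFP 2.78, 3.69 and 3.86, and Tom 2.204, 2.71 and 3.58. Both DKO* fractions lay above Co, at differences of 1.42 (adjusted p = 0.0198) and 1.204 (adjusted p = 0.0391). The GFP call was lost without mouse 810, 814, 825 or 828 (adjusted p between 0.0527 and 0.0675) and the Tom call without any mouse but 817 (between 0.0584 and 0.111), without the filter (0.0717) and with rescaled libraries (0.0587).

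Of 4 leukocyte markers tested, 3 rose in either DKO* fraction of HF-SCs, 2 in mutant b-KCs and 0 in Tom b-KCs, and none fell, although CD45+ cells were gated out. Of all genes, 18.5% and 22.3% rose in HF-SC GFP and Tom, and 20.3% and 22.6% in b-KC GFP and Tom. The sum over all 6 markers listed in HF-SCs was 1.86 to 2.45 FPKM for Co, 6.37, 4.46 and 21.7 for GFP cells of mice 814, 815 and 817, and 12.6, 10.0 and 14.6 for their Tom cells. The HF-SC GFP library highest in Il1b was thus the highest in these markers. In b-KCs the sum was 0.603 to 1.05 FPKM in Co, 3.53 to 4.37 in GFP and 1.39 to 3.94 in Tom. Ptprc, which encodes CD45, stayed under 1 FPKM in every library. The sum over 5 macrophage markers was 4.50 to 6.22 FPKM in HF-SC Co, 7.00 to 19.7 in HF-SC GFP and 4.44 to 15.1 in HF-SC Tom. For b-KCs it was 1.29 to 1.64 FPKM in Co, 3.76 to 4.50 in GFP and 3.55 to 5.96 in Tom. Of 5 neutrophil markers listed, Cxcr2 alone was tested, and it rose in all 4 DKO* populations (for HF-SC GFP 6.98 to 8.24 FPKM against 1.202 to 1.67 in Co, and for b-KC Tom 8.28 to 10.3 against 1.42 to 1.52). The untested Csf3r, Mmp8 and Itgb2l stayed under 1 FPKM in every library. Retnlg, also untested, was 0 in Co libraries and reached 2.19 FPKM in HF-SC Tom and 0.332 in b-KC Tom. Of the 4 Langerhans cell markers tested, Cd74, H2-Ab1 and H2-Aa rose in each DKO* population, whereas Mfge8 fell in HF-SC GFP from a mean of 66.9 to 28.8 FPKM and did not pass in the others. The sum over all 5 markers went from 74.9 to 77.6 FPKM in HF-SC Co to 223 to 271 with GFP and 173 to 449 with Tom, and from 10.3 to 22.5 in b-KC Co to 375 to 683 with GFP and 295 to 1359 with Tom. Cd207, which encodes langerin and defines these cells, stayed at 0.113 to 1.07 FPKM over all libraries. Across the 18 libraries, the genes most like Il1b were Ms4a6d (Pearson r = 0.90), Cd53 (0.89) and Osm (0.89), genes known from leukocytes. The part of these markers in the Il1b values was not tested.

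Il1rn, the IL-1 receptor antagonist, had 9.10, 14.4 and 8.74 FPKM in HF-SC Co against 80.7, 101 and 85.3 in b-KC Co. It was 0.121 times as high in HF-SC Co as in b-KC Co (log2 difference -2.96, adjusted p = 9.93e-06). In DKO* skin it had 139, 131 and 89.9 FPKM in GFP HF-SCs, within or above the b-KC Co range, and 65.0, 52.1 and 52.0 in Tom HF-SCs, below that range. GFP libraries all lay above Tom, and Tom above Co. The mean rose 11.2-fold in GFP (log2 fold change 3.37, SE 0.38, adjusted p = 6.18e-06) and 5.24-fold in Tom cells (2.31, adjusted p = 1.61e-04). In b-KC GFP it had 184, 195 and 68.2 FPKM and in b-KC Tom 158, 134 and 58.7, so that mouse 817 lay below and the other mice above the Co libraries. Neither b-KC difference passed (0.60, adjusted p = 0.217 and 0.28, adjusted p = 0.577), but both did without mouse 817 (1.08, adjusted p = 2.49e-04 and 0.71, adjusted p = 0.00507).

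HF-SCs also gained more Il1rn than b-KCs, by 2.77 on the log2 scale for GFP (SE 0.54, adjusted p = 0.00341) and by 2.03 for Tom cells (adjusted p = 0.0168). The Tom difference did not pass without mouse 810 (adjusted p = 0.0693), 815 (0.0573) or 828 (0.0756). Between the fractions, HF-SC GFP exceeded Tom in 3 of 3 mice, 1.73- to 2.52-fold. The difference of 1.06 did not pass (adjusted p = 0.108), but passed with the mouse as a random block (0.0194), as a fixed block (0.0231) and without mouse 817 (1.202, adjusted p = 6.11e-04).

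Il1r2, the decoy receptor, moved in the opposite direction in keratinocytes. It had 129, 134 and 163 FPKM in b-KC Co, 40.4, 44.8 and 37.2 in b-KC GFP and 52.8, 64.2 and 49.9 in b-KC Tom. No library of a DKO* group reached the Co range, and all 3 GFP libraries lay below the Tom libraries. It fell to 0.287 of the Co mean in GFP (log2 fold change -1.77, SE 0.19, adjusted p = 1.17e-05) and to 0.391 in Tom cells (-1.34, adjusted p = 6.79e-05). HF-SCs held far less of it. Control libraries read 14.1, 13.6 and 11.5 FPKM, GFP libraries 18.7, 16.2 and 14.3, and Tom libraries 24.5, 25.0 and 13.5. HF-SC Co had 0.0919 of the b-KC Co mean (adjusted p = 2.33e-09). The GFP difference in HF-SCs did not pass (0.30, adjusted p = 0.229), except without mouse 817 (0.39, adjusted p = 0.0274), and the Tom group, which overlapped Co, passed (0.60, adjusted p = 0.0194). That last call was lost without mouse 814 (adjusted p = 0.121), 815 (0.137) or 828 (0.0839), and with only the groups compared in the fit (0.103). The changes of the cell types differed by 2.08 for GFP (adjusted p = 2.43e-04) and 1.94 for Tom cells (adjusted p = 2.37e-04).

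Il18 encodes a cytokine of the same family that is stored as a precursor in keratinocytes. HF-SC values were 2.14, 3.46 and 1.61 FPKM for Co, 4.55, 2.42 and 1.41 for GFP and 5.86, 4.70 and 1.61 for Tom cells. Those of b-KCs were 3.38, 2.29 and 4.53 FPKM for Co, 1.69, 3.05 and 1.19 for GFP and 10.6, 9.66 and 3.73 for Tom cells. Within a cell type, only GFP and Tom of b-KCs did not overlap. It passed in none of the comparisons. In b-KC Tom the difference from Co was 0.96 (SE 0.42, adjusted p = 0.0703), which passed with the mouse as a random block (0.0448) and without mouse 817 (1.37, adjusted p = 8.93e-04). In HF-SC Tom it was 0.49 (adjusted p = 0.355), and 0.91 without mouse 817 (adjusted p = 0.0116). GFP was below Tom in all 3 mice in b-KCs, at 0.159, 0.316 and 0.320 times the Tom value. This difference of -1.54 did not pass (adjusted p = 0.0806), but passed with the mouse as a random block (0.010) or fixed block (0.0231) and without mouse 817 (-1.75, adjusted p = 0.00291).

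Il1f9, which encodes IL-36γ, was the IL-36 agonist with the highest FPKM in all 18 libraries, 60.9% to 91.8% of the summed agonists. HF-SC libraries read 2.52, 3.74 and 3.16 FPKM for Co, 145, 113 and 55.0 for GFP and 83.5, 65.9 and 43.0 for Tom cells. Co lay far below both DKO* groups, which overlapped. The rise was 33.2-fold in GFP (log2 fold change 4.57, SE 0.47, adjusted p = 2.29e-06) and 20.4-fold in Tom cells (3.94, adjusted p = 7.87e-06). In b-KCs, 15.3, 10.9 and 14.8 FPKM in Co compared with 181, 172 and 53.0 in GFP and 190, 185 and 71.8 in Tom. The rise was 9.88-fold in GFP (3.04, adjusted p = 1.96e-04) and 10.9-fold in Tom cells (3.24, adjusted p = 6.69e-05). Tom slightly exceeded GFP in 3 of 3 mice in b-KCs, and GFP exceeded Tom in 3 of 3 mice in HF-SCs. Neither difference passed (adjusted p = 0.984 and 0.50), although the HF-SC difference did without mouse 817 (0.78, adjusted p = 0.00823). The changes of HF-SCs and b-KCs from Co to GFP differed by 1.53 (adjusted p = 0.140), a difference that passed with the mouse as a random block (0.0223) and without mouse 817 (1.37, adjusted p = 0.00112).

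Il1f6, which encodes IL-36α, was nearly silent in control cells, with 0.387, 0.606 and 0.325 FPKM in HF-SC Co and 0.293, 0.650 and 0.888 in b-KC Co. HF-SC GFP libraries had 48.5, 43.2 and 6.48 FPKM and HF-SC Tom libraries 9.52, 9.05 and 4.48. In b-KCs, GFP libraries had 37.7, 38.3 and 3.20 FPKM and Tom libraries 18.3, 20.5 and 7.09. All 12 DKO* libraries exceeded all 6 Co libraries, and mouse 817 was lowest in each group. The mean was 74.5-fold higher in HF-SC GFP (log2 fold change 4.15, SE 0.77, adjusted p = 5.62e-04), 17.5-fold in HF-SC Tom (2.54, adjusted p = 0.0142), 43.3-fold in b-KC GFP (3.54, adjusted p = 0.00224) and 25.1-fold in b-KC Tom (3.23, adjusted p = 0.00313). The HF-SC Tom call was lost without mouse 814 (adjusted p = 0.0515), 815 (0.0564) or 828 (0.0524). Without mouse 817, GFP exceeded Tom by 2.19 in HF-SCs (adjusted p = 2.71e-07) and by 0.94 in b-KCs (adjusted p = 0.00396), differences that were 1.61 (adjusted p = 0.258) and 0.31 (adjusted p = 0.985) with all mice.

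Il1f8, which encodes IL-36β, was the gene whose change from Co moved most in each population when mouse 817 was left out. HF-SC Co had 0.741, 1.08 and 0.364 FPKM, GFP 29.9, 29.3 and 2.13, and Tom 13.3, 11.4 and 1.67. In b-KCs, Co had 1.85, 0.894 and 2.60 FPKM, GFP 21.6, 24.0 and 1.55, and Tom 30.9, 29.2 and 3.07. Mouse 817 stayed close to the Co values in each group, whereas mice 814 and 815 were far above them. Only HF-SC GFP passed, at 3.07 (SE 1.02, adjusted p = 0.0262), and lost the call without any mouse but 817 (adjusted p between 0.0600 and 0.133). HF-SC Tom differed by 2.19 (adjusted p = 0.0935), b-KC GFP by 2.07 (0.115) and b-KC Tom by 2.55 (0.0520). With only the groups compared, HF-SC Tom (0.0313) and b-KC Tom (0.0257) passed, as they did with a pseudocount of 0.1 (0.0492 and 0.0477). Under the random block, the 3 differences that had not passed came to an adjusted p of 0.0298, 0.0407 and 0.0131, and without mouse 817 to differences of 2.96, 3.14 and 3.53 (adjusted p of 1.28e-07, 1.70e-07 and 5.88e-08).

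Il1f5, the IL-36 receptor antagonist, showed the smallest changes from Co of the IL-36 genes in each population. Levels in HF-SCs were 1.96, 5.68 and 2.51 FPKM for Co, 27.6, 27.6 and 4.56 for GFP and 5.76, 7.48 and 3.46 for Tom cells. GFP of mouse 817 fell within the Co range, as did Tom of that mouse. The GFP difference of 2.01 passed (SE 0.60, adjusted p = 0.0146) and lost the call without mouse 810 (adjusted p = 0.0716), 814 (0.103), 815 (0.0965) or 828 (0.0620). The Tom difference of 0.63 (adjusted p = 0.415) passed without mouse 817 (0.88, adjusted p = 0.0116). In b-KCs, 15.2, 17.3 and 11.8 FPKM in Co overlapped with 22.7, 25.7 and 7.09 in GFP and 11.7, 13.5 and 4.14 in Tom. These differences were 0.14 (adjusted p = 0.874) and -0.67 (adjusted p = 0.375), the first of which passed without mouse 817 (0.69, adjusted p = 0.0393). GFP exceeded Tom in 3 of 3 mice of each cell type. In HF-SCs that difference of 1.38 (adjusted p = 0.20) passed with the mouse as a random block (0.0367) but not as a fixed block (0.102), and passed without mouse 817 (1.92, adjusted p = 2.56e-04). In b-KCs that of 0.81 (adjusted p = 0.754) passed with the mouse as a fixed block (0.0333) but not as a random block (0.367). From Co to GFP, HF-SCs and b-KCs changed by amounts 1.87 apart (adjusted p = 0.161), a difference that passed with the mouse as a random block (0.0328) and without mouse 817 (2.11, adjusted p = 0.00118).

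Markers of suprabasal keratinocytes, cells known to make IL-36 cytokines and antagonists and to be low in the CD49f that the gate required to be high, also moved in HF-SCs. Their sum over all 6 genes in HF-SCs was 765 to 976 FPKM for Co, 3512, 3114 and 1741 for GFP cells of mice 814, 815 and 817, and 1666 to 2110 for Tom cells, so mouse 817 was lowest in GFP here too. In b-KCs it was 6938 to 8633 FPKM in Co, 4904 to 6928 in GFP and 3883 to 6984 in Tom, with 0 of the 6 markers higher and 3 lower in each DKO* fraction. In HF-SC GFP 3 of the 6 rose and none fell, and in HF-SC Tom 3 rose and 2 fell. Of all genes tested, 18.5% rose and 20% fell in HF-SC GFP, and 22.3% rose and 22.1% fell in HF-SC Tom. In b-KCs 20.3% rose and 21.3% fell with GFP, and 22.6% rose and 23.3% fell with Tom. Their part in the IL-36 values, and that of the endothelial markers in HF-SC Tom, was not tested.

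Counted over the family, HF-SC GFP against Tom gave 1 gene higher (Il1a) and none lower, beside a background of 2.83% higher, and the stricter rule gave 1 as well, beside 0.0941%. The count was 3 with the mouse as a random block, 2 as a fixed block, and 8 without mouse 817 (6 higher and 2 lower), where 22.9% of all genes passed in either direction. No share of all genes was computed for the blocked fits, so their counts have no background here. The lower genes were Il1b (-0.71, adjusted p = 0.0191) and Il1r2 (-0.48, 0.0328), and Il1f8 was among the higher (1.202, 0.00298). In b-KCs, GFP against Tom likewise gave 1 gene higher (Il1a), beside 1.19% (0 and 0.0471% under the stricter rule), with 2 genes under the random block and 3 under the fixed block. Without mouse 817, 3 genes passed there, beside 6.67% of all genes in either direction, and without mouse 814 or 815 none did.

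**Figure D3:**
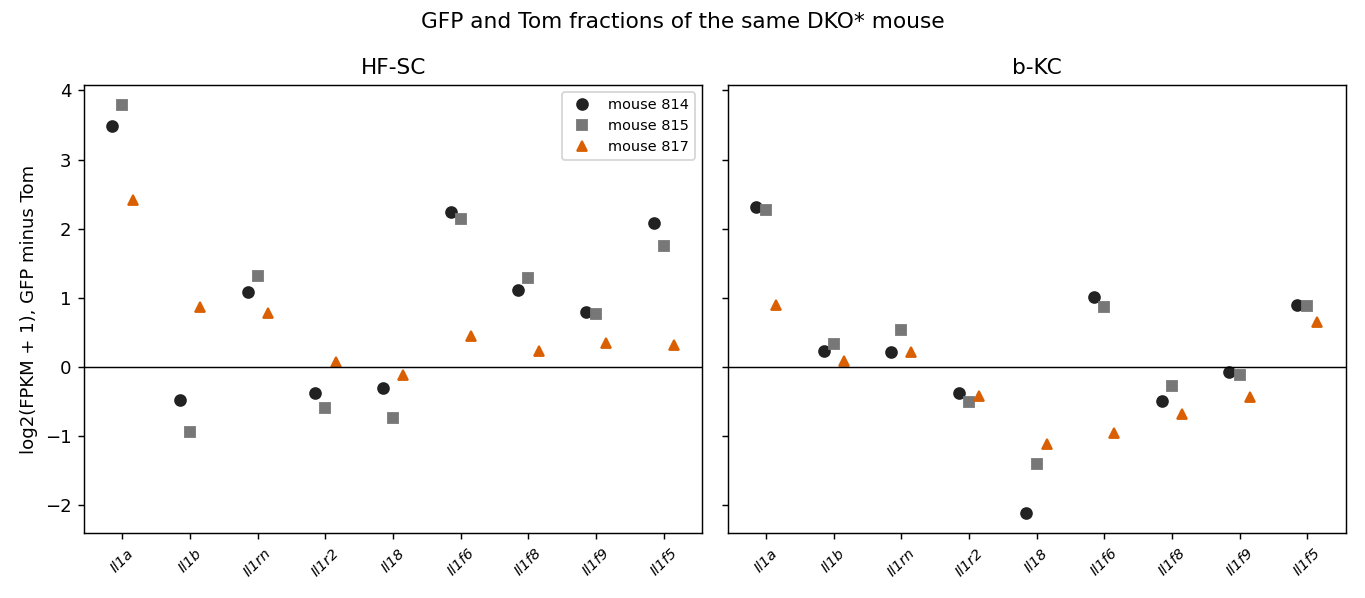
Difference of log2(FPKM + 1) between GFP and Tom fractions of the same DKO* mouse for each family gene, in HF-SCs (left) and b-KCs (right), with 1 point per mouse. Il1a lies above 0 in all mice and both cell types, and mouse 817 (orange triangles) lies closest to 0 for most HF-SC genes.

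In control skin, HF-SCs had less of the family than b-KCs. Il1a, Il1rn, Il1r2, Il1f5 and Il1f9 were lower and none was higher, beside 27.3% of all genes tested that were lower. Under the stricter rule 2 were lower (Il1rn and Il1r2), beside 2.82%. Il1f9 was 0.230 times as high in HF-SC Co (log2 difference -1.82, adjusted p = 0.00409), Il1f5 0.229 times (-1.93, adjusted p = 0.0136) and Il1a 0.292 times (-1.07, adjusted p = 0.0229). Rescaling the libraries to a common upper quartile moved the median of all genes by 0.16 in this comparison and left these calls in place. Without mouse 810 or 828 the count of 5 became 3, as Il1a (adjusted p = 0.0829 and 0.153) and Il1f5 (0.104 and 0.0620) did not pass, and Il1a did not pass without mouse 825 either (0.0612). Il1b was lower by 0.61 (adjusted p = 0.274), with no overlap, and did not pass with the mouse as a random block (0.168). It passed with a fixed block (0.00133), with only the groups compared (0.00137), without mouse 817 (0.00462) and with a pseudocount of 0.1, where it was -2.12 (0.00538). Il1f8 passed with only the groups compared (0.0454) and without mouse 817 (0.0115). Mouse 817 is in neither Co group. Leaving it out kept both differences as they were (-0.61 for Il1b and -0.66 for Il1f8) and changed only the spread estimated over all groups. Without that mouse 63.8% of all genes passed in either direction. All 6 suprabasal markers were lower in HF-SC Co as well. Other lists went the other way there, with median log2 differences of 2.24 for 8 endothelial and 2.58 for 5 tested fibroblast markers. The median of all genes tested was -0.06. The part of these markers in the family's values was not tested.

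Changes from Co differed between the cell types for 3 genes in GFP (Il1a, Il1rn and Il1r2, beside 7.31% of all genes with a higher value in HF-SCs) and 2 in Tom cells (Il1rn and Il1r2, beside 10.3%), each with the higher value in HF-SCs. The GFP count was 5 with the mouse as a random block, for which no share of all genes was computed, and 6 without mouse 817. Under the stricter rule the counts were 3 (beside 0.604%) and 0 (beside 1.75%). The Tom count was 6 without mouse 817, and 1 without mouse 810, 815 or 828. Il1b differed by 1.63 for Tom cells (adjusted p = 0.0996) and passed with the random block (0.0329), with only the groups compared (0.00366), without mouse 817 (5.56e-04) and with a pseudocount of 0.1, where it was 3.35 (0.0111). That pseudocount also gave 2.79 for Il1b in GFP cells (0.0346). Without mouse 817, Il1f8 passed for GFP (1.02, adjusted p = 0.0284) and Il1a (0.79, 0.00867) and Il1f5 (1.09, 0.0489) for Tom cells, and 30.8% (GFP) and 25.4% (Tom) of all genes passed in either direction. With only the groups compared, Il1a also passed for Tom cells (0.0121). For Il1f6 the difference was 0.60 for GFP (SE 1.08, adjusted p = 0.736) and -0.70 for Tom cells (adjusted p = 0.734), the latter passing without mouse 817 (-0.84, adjusted p = 0.0121).

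Blockers were lower relative to agonists in DKO* cells. The log2 ratio of Il1rn to Il1a plus Il1b, on FPKM + 1, had a median of 2.497 in control and 0.63 in mutant HF-SCs, where it was 0.51 to 0.75 in the 3 mice despite their different levels. HF-SC Tom had a median of 2.19 and a range just below that of Co (1.61 to 2.34 against 2.36 to 2.92). Il1a plus Il1b was 0.727 to 1.04 FPKM in HF-SC Co and 10.6 to 16.4 in HF-SC Tom. The added 1 therefore lowered the Co ratios more, and made the gap to Tom look smaller than in plain FPKM. In b-KCs the median was 4.23 in Co, 2.11 in GFP (2.07 to 2.11) and 3.58 in Tom. For Il1f5 against the summed IL-36 agonists, the median was -0.47 in HF-SC Co and -0.19 in b-KC Co, and -2.97 (GFP) and -3.49 (Tom) in HF-SCs and -3.14 (GFP) and -4.03 (Tom) in b-KCs of DKO* skin. No DKO* library overlapped with a Co library on this ratio. The summed IL-36 agonists were 3.64 to 5.43 FPKM in HF-SC Co, 63.6 to 224 in HF-SC GFP, 49.2 to 106 in HF-SC Tom, 12.5 to 18.2 in b-KC Co, 57.8 to 240 in b-KC GFP and 82.0 to 239 in b-KC Tom. These ratios combine the family genes already described and were not tested.

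**Figure D4:**
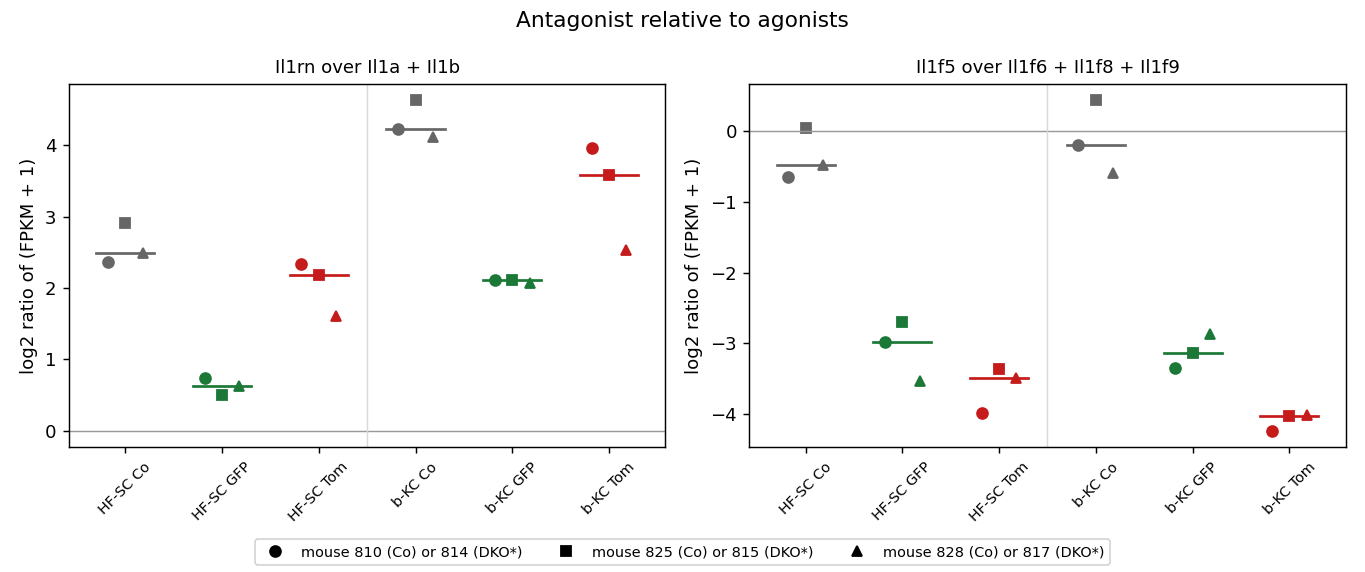
Log2 ratio of FPKM + 1 of the antagonist to the summed agonists in each library, for IL-1 (left) and IL-36 (right), with bars at the group medians. The IL-1 ratio was lowest in HF-SC GFP (median 0.63), and the IL-36 ratio was between -4.24 and -2.70 in all DKO* libraries.

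Some receptors for these cytokines rose in HF-SCs. Of 7 receptor genes listed, 6 were tested, of which 4 rose in HF-SC GFP and 3 in HF-SC Tom, none rose or fell in b-KC GFP, and 1 rose and 1 fell in b-KC Tom. Of all genes tested, in HF-SC GFP and Tom and then b-KC GFP and Tom, 18.5%, 22.3%, 20.3% and 22.6% rose and 20%, 22.1%, 21.3% and 23.3% fell. The medians were 0.92, 0.86, -0.15 and -0.19. With a mouse left out, 2 (without 815) to 5 (without 817) receptor genes passed in HF-SC GFP, 3 to 5 (without 817) in HF-SC Tom, and 0 to 2 (without 817) in b-KC GFP. The b-KC Tom count was 0 without 815, 825 or 828, 1 without 810 or 817 and 2 without 814. Il1rl2, the IL-36 receptor, rose from a mean of 12.2 FPKM in HF-SC Co to 34.6 in GFP (1.47, adjusted p = 1.72e-04) and 26.0 in Tom cells (1.04, adjusted p = 0.00234), where b-KC Co had 37.1. Il1rap, the co-receptor shared by IL-1 and IL-36, rose from 8.42 to 17.2 FPKM in HF-SC GFP (0.97, adjusted p = 0.00103). The signalling IL-1 receptor Il1r1 rose from 7.69 to 22.6 FPKM in HF-SC Tom (1.41, adjusted p = 5.88e-05) and had 11.5 in HF-SC GFP (0.54, adjusted p = 0.0502). Sigirr, an inhibitory receptor of the family, went from 0.993 to 4.33 FPKM in HF-SC Tom (1.27, adjusted p = 0.00205) and had 1.07 in HF-SC GFP. Both Il1r1 and Sigirr were lower in GFP than in Tom HF-SCs (adjusted p = 0.0127 and 0.0118), the comparison in which all 8 endothelial markers were lower.

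Among the other ligands and binding proteins, Il33, which encodes a nuclear alarmin of the family, fell in b-KCs from a mean of 99.6 FPKM in Co to 10.6 in GFP (-3.19, adjusted p = 7.61e-06) and 37.9 in Tom (-1.498, adjusted p = 0.00202). In HF-SCs it had 13.4 FPKM in Co, 12.8 in GFP (-0.06, adjusted p = 0.894) and 27.7 in Tom (0.93, adjusted p = 0.0338). The change to GFP differed between the cell types by 3.13 (adjusted p = 5.78e-04). Il18bp, the binding protein that neutralizes IL-18, rose in HF-SC Tom from 1.47 to 6.97 FPKM (1.60, adjusted p = 1.85e-04) and in b-KC GFP from 0.581 to 1.85 (0.83, adjusted p = 0.0208). Il1f10, within the chromosome 2 block, fell in b-KC Tom from 1.12 to 0.338 FPKM (-0.63, adjusted p = 0.0321). In all, of these 3 genes, 0 and 2 rose and none fell in GFP and Tom HF-SCs, and 1 and 0 rose and 1 and 2 fell in GFP and Tom b-KCs. Of all genes, 18.5%, 22.3%, 20.3% and 22.6% rose and 20%, 22.1%, 21.3% and 23.3% fell in these 4 comparisons.

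Of 16 listed genes that cut or ripen the cytokines, 9 were tested, and in HF-SC GFP and Tom and then b-KC GFP and Tom 4, 5, 4 and 5 rose and 0, 1, 0 and 0 fell, with medians of 0.35, 0.90, 0.69 and 0.97, where 18.5%, 22.3%, 20.3% and 22.6% of all genes rose and 20%, 22.1%, 21.3% and 23.3% fell. These counts leaned on single mice, and with 1 or 2 genes left they lay near or below those shares. In HF-SC GFP 2 passed without any mouse but 817, in b-KC GFP 2 without 815, 825 or 828 and 8 without 817, and in b-KC Tom 1 without 815 or 825, 2 without 814 and 3 without 810 or 828. Capn2, a subunit of calpain, a protease that cuts the IL-1α precursor, rose in b-KCs from 26.5 FPKM to 119 in GFP (2.12, adjusted p = 5.72e-07) and 127 in Tom (2.22, adjusted p = 2.13e-07), and had 101 in HF-SC Co. Aim2, a DNA sensor of the inflammasome, rose in each population, most in HF-SC GFP, from 0.372 to 5.57 FPKM (2.25, adjusted p = 1.09e-04). Casp4, an inflammatory caspase, also rose in each, from 1.44 to 16.5 FPKM in HF-SC Tom (2.47, adjusted p = 5.30e-04). Casp8 rose in HF-SC Tom from 8.50 to 17.4 FPKM (0.91, adjusted p = 0.00196).

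All 12 signalling genes were tested, and in the same order of populations 4, 4, 2 and 2 rose and 0, 1, 4 and 3 fell, with medians of 0.23, 0.04, -0.17 and -0.12. Of all genes, 18.5%, 22.3%, 20.3% and 22.6% rose and 20%, 22.1%, 21.3% and 23.3% fell, so that the b-KC counts in particular lay near the shares of all genes. Without mouse 815, 3 passed in each b-KC population, and without mouse 817, 8 passed in HF-SC Tom, 4 in each direction. The adaptor Myd88 rose from 23.5 to 57.0 FPKM in HF-SC GFP (1.24, adjusted p = 1.40e-06) and from 57.7 to 100.4 in b-KC GFP (0.78, adjusted p = 1.98e-04). Irak3, an inhibitor of the IRAK step, rose in each population, from 3.87 to 22.2 FPKM in HF-SC GFP (2.23, adjusted p = 4.90e-06). Irak4, the first kinase of the cascade, rose in HF-SC Tom from 3.84 to 6.66 FPKM (0.66, adjusted p = 1.77e-04). Tollip, another inhibitor, fell in b-KCs from 165 FPKM to 62.4 in GFP (-1.39, adjusted p = 3.50e-04) and 58.5 in Tom (-1.48, adjusted p = 1.31e-04).

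Of 16 listed targets of IL-1 and IL-36 signalling, 15 were tested, and in that order 13, 12, 10 and 6 rose and 0, 0, 2 and 3 fell, with medians of 2.55, 1.76, 1.95 and 1.17. Beside the 18.5%, 22.3%, 20.3% and 22.6% of all genes that rose and 20%, 22.1%, 21.3% and 23.3% that fell, the counts of higher targets stood above the share of all genes, whereas the 3 lower ones in b-KC Tom were near it. These genes also answer to other cytokines. Lcn2, an antimicrobial protein, rose from 0.895 to 515 FPKM in HF-SC GFP (7.98, adjusted p = 1.09e-07) and from 3.79 to 1327 in b-KC GFP (7.89, adjusted p = 5.17e-07). The neutrophil chemokine Cxcl2 rose from 0.444 to 33.0 FPKM in HF-SC GFP (4.56, adjusted p = 5.28e-10) and was higher in GFP than in Tom in both HF-SCs (0.77, adjusted p = 0.0115) and b-KCs (1.25, adjusted p = 0.00199). Ccl20, which attracts CCR6+ cells, showed the same order, with 8.69, 177 and 61.7 FPKM in HF-SC Co, GFP and Tom and 88.4, 435 and 116 in b-KCs. Csf3, which encodes G-CSF, had 81.9 FPKM in HF-SC Tom against 7.23 in GFP and 1.57 in Co (5.02 for Tom against Co, adjusted p = 2.91e-08). HF-SC Tom is the group in which endothelial markers stood apart. Their part in its values of Csf3, Il33 and Il18bp was not tested. Nfkbiz and Tnfaip3, feedback regulators of NF-κB named after their values were seen, rose in HF-SCs and fell in b-KCs. Tnfaip3 went from 20.5 to 65.2 FPKM in HF-SC GFP and from 134 to 77.5 in b-KC GFP.

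**Figure D5:**
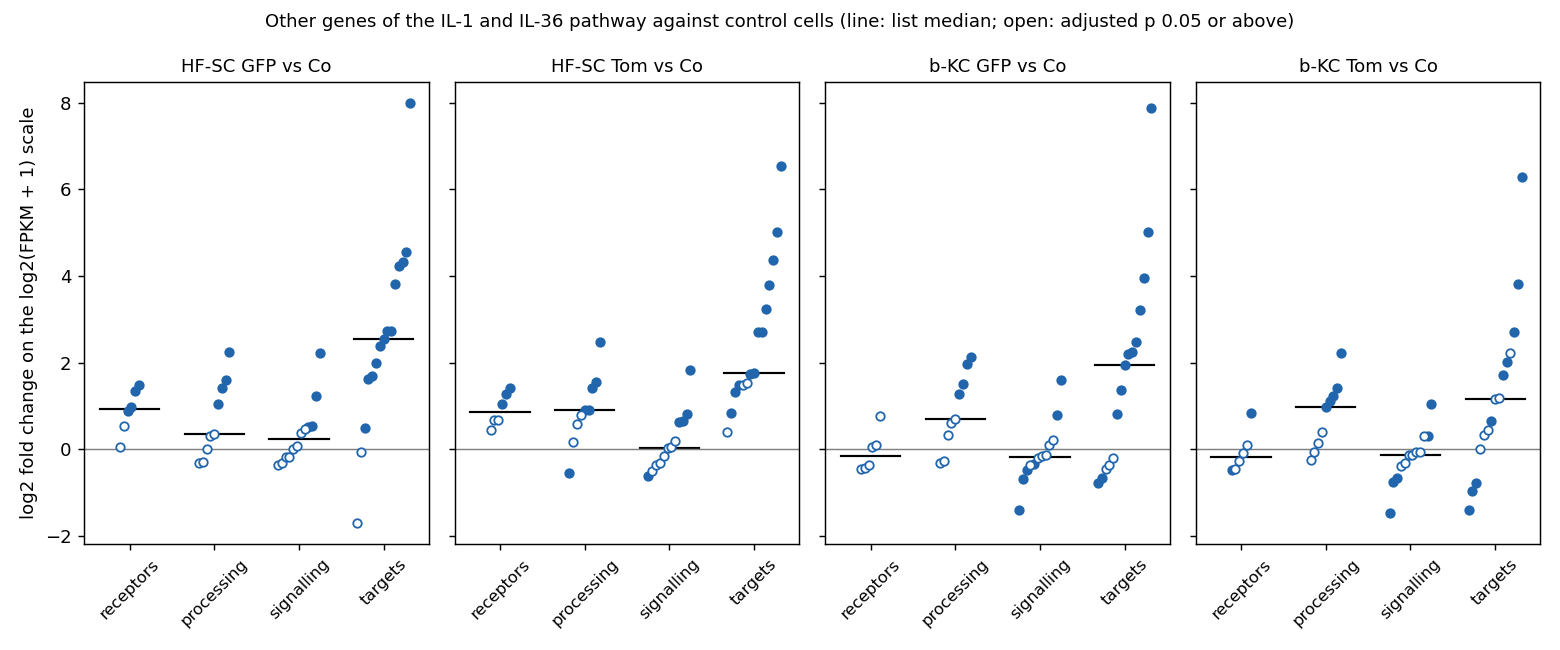
Log2 fold change against Co, on the log2(FPKM + 1) scale, of the tested receptor, processing, signalling and target genes in each DKO* population, with lines at list medians and filled points where the adjusted p was under 0.05. The target list had the highest median in each population (2.55, 1.76, 1.95 and 1.17), and the medians of the signalling genes lay near 0 (0.23, 0.04, -0.17 and -0.12).

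The patterns of the family over the 18 libraries differed in the genes most like them, as Pearson r on log2(FPKM + 1). Il1a was closest to Slpi (0.96), an epithelial protease inhibitor, and to Tslp (0.96), which encodes an epithelial cytokine. Il1rn was closest to Ephx3 (0.97) and Grhl3 (0.97), the latter a transcription factor of the epidermal barrier, and Il1f5 to Wfdc5 (0.97) and Gsdma (0.96). Il1f6 was closest to the cornified envelope gene Sprr2b (0.97), Rnase2b (0.97) and the chemokine gene Cxcl5 (0.97), Il1f8 to the defensin Defb4 (0.97) and Il1f9 to 2310042E22Rik (0.99) and Glrx (0.99). Il1r2 was closest to Slc22a4, Dusp22 and Ikzf2 (0.97, 0.97 and 0.96). Il18 had no gene above 0.83 (Xlr4c). The libraries share mice and 3 of them make up each group, so these values describe likeness across groups.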

How the data were processed

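RNA-seq of FACS-sorted cells was analysed for all 18 libraries, grouped by their labels. SMART-Seq v4 and Nextera XT libraries without strand information were read as 51-base single-end reads and aligned to NCBI37/mm9 with TopHat2 2.0.10, with 2 mismatches and 20 multihits allowed. The authors deposited FPKM values from Cufflinks 2.2.1, 1 per gene and library. Overlapping and antisense genes cannot be separated.

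The members, gene lists and tests were chosen with earlier results of these data known. Genes at 1 FPKM or more in at least 3 libraries (12751) entered a limma 3.58.1 fit (R 4.3.3, eBayes with trend) of log2(FPKM + 1) in which each of the 6 groups had its own mean, followed by Benjamini-Hochberg adjustment. The step was tested on simulated data. Named genes were all members, up to 4 genes per list with the smallest adjusted p-values against Co, the 3 genes most like each member, and the deleted genes. A rule to name the genes between Il1a and Il1rn was not applied, since 105 Mb separate them, and the genes of the Il1f8 to Il1rn block were named after the annotation was seen. The same mouse gave several libraries, and same-mouse libraries deviated together (r from 0.08 to 0.70, over 0.1 in 14 of 15 pairs), so the labels pair the libraries, and blocked fits were added, with mouse as a random or a fixed term. Depth was inferred from FPKM steps of 7744 genes with 1 transcript, with 77.3% to 81.2% of their low values falling no more than 0.1 reads from a whole number. Such floors cover counting error only. Promoters came from RefSeq (GRCm38.p6), whose coordinates differ from those of NCBIM37. Python 3.11.15, pandas 2.3.3, numpy 2.4.6 and matplotlib 3.10.9 were used.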

Additional observations from a re-analysis of the deposited data

Results flagged for a closer look

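For 3 genes the change from Co differed between HF-SCs and b-KCs by a test of the difference itself (limma interaction term on log2(FPKM + 1), HF-SC change minus b-KC change, Benjamini-Hochberg adjustment). Il1a differed by 2.33 for GFP cells (adjusted p = 0.00819), with changes of 5.18 in HF-SCs and 2.85 in b-KCs. Il1rn differed by 2.77 for GFP (adjusted p = 0.00341) and by 2.03 for Tom cells (adjusted p = 0.0168), with b-KC Co starting from 89.1 FPKM and HF-SC Co from 10.8. Il1r2 differed by 2.08 for GFP (adjusted p = 2.43e-04) and by 1.94 for Tom cells (adjusted p = 2.37e-04), as it fell in b-KCs and not in HF-SCs.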

How the results depend on the processing

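Of 1080 repeats of a single gene's comparison under an alternative, 956 kept direction and side of the threshold, 61 lost and 53 gained a call, and 10 changed sign, all in differences that had not passed. Requiring an adjusted p under 0.01 and a log2 change of 2, 3 genes passed for Tom HF-SCs, 3 for GFP b-KCs, 2 for Tom b-KCs, 0 in b-KC GFP against Tom, 2 in HF-SC Co against b-KC Co and 0 in the difference of Tom changes. Without the filter 3 passed in b-KC Tom. With only the groups compared in the fit, 0 passed in b-KC GFP against Tom and 4 in the difference of Tom changes. With the mouse as a random replicate block, 3 passed in HF-SC and 2 in b-KC GFP against Tom and 5 in the difference of GFP changes, and with a fixed block 2 in HF-SC and 3 in b-KC GFP against Tom. No share of all genes was computed for the fits without the filter, with only the groups compared or with a block. Apart from the single genes named in the report, the block changed no other call. The causes were not tested.

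Leaving out each mouse in turn, the genes that passed ranged from 5 to 8 (GFP) and 4 to 9 (Tom) in HF-SCs against Co, from 4 to 8 (GFP) and 3 to 8 (Tom) in b-KCs, 1 to 8 in HF-SC GFP against Tom, 0 to 3 in b-KC GFP against Tom, 3 to 7 between the Co groups, and 2 to 6 and 1 to 6 in the differences of GFP and Tom changes. Every highest count came without mouse 817, where all 28 moved calls were gained. That mouse is in neither Co group, so the count between the Co groups rose through the shared spread alone. Differences that changed sign ranged over -0.21 to 0.39 for Il18 in HF-SC GFP, -0.17 to 0.69 for Il1f5 in b-KC GFP, -0.71 to 0.20 for Il1b in HF-SC GFP against Tom, -0.0384 to 0.94 for Il1f6 in b-KC GFP against Tom, -0.27 to 0.0311 for Il1f6 between Co groups and -0.73 to 0.0397 for Il1f8 in the difference of Tom changes, which was also 0.0347 with a pseudocount of 0.1. With a pseudocount of 0.1, called differences that moved by over 1.5 times were those of Il1b from Co (2.25 for mutant and 1.96 for Tom b-KCs, beside the HF-SC values in the report), Il1f6 in HF-SC Tom (3.81) and Il1a between Co groups (-1.67). With 3 libraries a group, standard errors of the changes from Co ran from 0.19 (Il1r2) to 1.02 (Il1f8).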
